A study of Homo sapiens with 6 samples.

Results

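The 10 genes described here are feedback inhibitors and early response targets of the kinase ERK: the phosphatase genes DUSP4, DUSP5 and DUSP6, the signalling inhibitor genes SPRY2, SPRY4 and SPRED1, the transcription factor genes EGR1, ETV4 and ETV5, and IER3. They were chosen by name, from current gene symbols matched to the Ensembl identifiers of the deposited tables. All 10 were among the 20263 genes of the tables and among the 13543 genes with enough counts to be tested. Total RNA was sequenced from cells labelled LNCaP, an established line of human prostate cancer. The labels give 3 libraries of cells with an overexpression vector for the long non-coding RNA LINC01518 and 3 of cells with an empty vector, so both groups carried a vector. MEG3 is the insert named in the design text of the series, but the title and sample labels have LINC01518, and the groups follow the sample labels. The insert's own level was not analysed here. Libraries held 38161544 to 42553688 counts each. Whether they came from separate cultures is not stated, so the p-values rest on the spread between libraries, which may be only technical.

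ERK is the last kinase of a cascade in which growth factor receptors activate RAS, RAF and MEK in turn. Active ERK drives the transcription of early response genes within minutes and then of genes whose products switch the cascade off again. The DUSP phosphatases of this class remove phosphate from ERK and related kinases, while the Sprouty and SPRED proteins act upstream, between the receptors and RAF. Because their transcripts depend on ERK activity, these genes are widely used as transcriptional readouts of the pathway. In prostate tumours the pathway is studied for its part in growth with low androgen, and the PEA3 factors to which ETV4 and ETV5 belong are targets of gene fusions there.

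The labelled cell line was compared with its usual markers. Of 12 luminal prostate markers, KLK3, KLK2, TMPRSS2 and FOLH1 had 0 counts in all 6 libraries. This allows up to 3 counts or 0.0703 to 0.0794 CPM (counts scaled to the TMM-adjusted library size), for counting error only. These 4 are among the usual markers of LNCaP, so they do not bear out the label. The identity of the cells was not tested. KRT8 and KRT18, keratin genes of luminal epithelium, carried most of the luminal list. Its summed level was 2726 to 2895 CPM with overexpression and 2262 to 2535 CPM with empty vector. The fibroblast list summed to 119 to 122 CPM with overexpression and 84.2 to 91.2 CPM with empty vector, mostly from COL1A1, while LUM, PDGFRA, FAP and POSTN had 0 counts. Basal epithelial markers, mostly KRT17, summed to 523 to 635 CPM with overexpression and 428 to 593 CPM with empty vector. Immune markers summed to 4.50 to 6.10 CPM with overexpression and 4.57 to 5.15 CPM with empty vector, with PTPRC, CD3E, CD3D, MS4A1, LYZ and NKG7 at 0 counts. Endothelial markers summed to 7.73 to 10.2 CPM with overexpression and 9.05 to 9.70 CPM with empty vector, with KDR at 0. Neuroendocrine markers stayed under 2 CPM in each library, with CHGB and NCAM1 at 0. Mitochondrially encoded genes took 4.84% to 5.16% of counts with overexpression and 4.66% to 5.13% with empty vector. The part of these differences in the results for the 10 genes was not tested, and in bulk RNA fewer cells expressing a gene and less RNA per cell cannot be told apart.

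The comparison asked how ERK feedback and early response genes stood after the overexpression vector was given. Of the 10 genes, 9 had a lower mean with overexpression than with empty vector, and IER3 and ETV5 fell by the test used. That test was edgeR's quasi-likelihood test with Benjamini-Hochberg adjustment over all 13543 genes and a threshold of 0.05. It called 2 of the 10, against 5.6% of all genes tested: 2 lower, against 2.03%, and 0 higher, against 3.57%. At an unadjusted p under 0.05, 6 of the 10 were lower, against 11.4% of all genes, and 0 were higher, against 12.3%. DESeq2 called 3 lower, against 3.93%, and 0 higher, against 5.79%, and limma-voom called 2 lower, against 2.01%, and 0 higher, against 3.51%. On deposited TPM (transcripts scaled for length and depth), limma-trend called 1 lower, against 0.879%, and 0 higher, against 0.738%. For 7 of the 10, each overexpression library lay below each empty vector library, which held for 15.5% of all genes tested, and for 0 each lay above, against 15.9%. The median log2 fold change of the 10 was -0.30, against -0.0035 over all genes tested, of which 50.8% had a negative value. These are descriptions of genes chosen with earlier results of these data known, and genes of 1 pathway are not independent of each other. The calls are few and close to the threshold: leaving out 1 library at a time gave 0 to 2 called members.

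**Figure D1:**
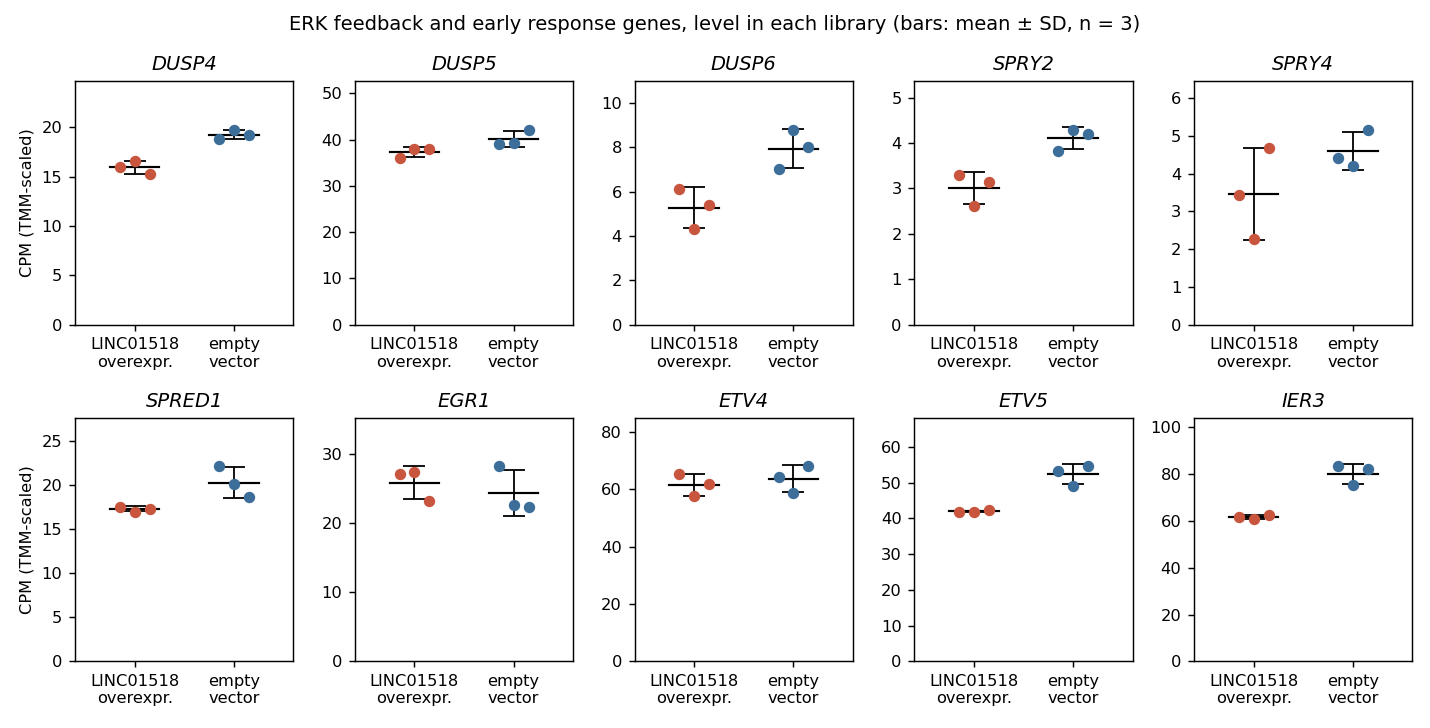
Level of each of the 10 genes in TMM-scaled CPM (vertical axes from 0), with LINC01518 overexpression on the left and empty vector on the right of each panel; points are libraries and bars give the mean ± SD of 3. The groups do not overlap for 7 genes and overlap for SPRY4, EGR1 and ETV4.

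IER3, an immediate early gene whose product regulates cell survival and is itself a substrate of ERK, had the highest TPM and the smallest p of the 10. IER3 (ENSG00000137331; chromosome 6, 30743199 to 30744554, minus strand, GRCh38, GENCODE release 29) had 61.7, 60.6 and 62.4 CPM with overexpression, against 83.3, 75.2 and 82.0 CPM with empty vector. The overexpression libraries lay within 2 CPM of each other, and the lowest empty vector library stood well above them. The mean was 61.6 ± 0.894 CPM with overexpression and 80.1 ± 4.36 CPM with empty vector (SD, n = 3 each). On the log2 scale IER3 differed by -0.38 (SE 0.056, edgeR adjusted p = 0.0127). This is 23.2% less with overexpression, with a 95% interval of 16.0% to 29.7% less. In TPM, IER3 had 87.5, 87.2 and 95.7 with overexpression, against 135.5, 119.6 and 117.5 with empty vector. The IER3 call was lost without overexpression replicate 2 (edgeR adjusted p = 0.0509) and without overexpression replicate 3 (0.0515), at log2 fold changes of -0.37 and -0.39. Over the 17 alternatives the adjusted p ran from 6.75e-06 with DESeq2 to 0.0533 on TPM without a count filter.

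The transcription factor genes did not move alike. ETV5, which encodes a PEA3 factor that carries ERK and fibroblast growth factor signals to its targets, fell with overexpression. ETV5 (ENSG00000244405; chromosome 3, 186046308 to 186110318, minus strand) had 41.9, 41.8 and 42.2 CPM with overexpression, against 53.3, 49.2 and 54.5 CPM with empty vector. Its overexpression libraries were nearly equal, and all lay below the empty vector libraries. The mean was 41.9 ± 0.242 CPM with overexpression and 52.3 ± 2.81 CPM with empty vector (SD, n = 3 each). On the log2 scale ETV5 differed by -0.32 (SE 0.060, edgeR adjusted p = 0.0276), which is 19.9% less with overexpression, with a 95% interval of 11.7% to 27.2% less. The ETV5 call held without empty vector replicate 2 (edgeR adjusted p = 0.0428) and was lost in the other 5 fits that left out 1 library (0.0622 to 0.0946). It was also lost on TPM, with a log2 fold change of -0.35 and a limma-trend adjusted p = 0.0639, and its adjusted p over the 17 alternatives ran from 0.000843 to 0.0946.

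ETV4, the closest relative of ETV5 among the 10, showed no such difference. ETV4 (ENSG00000175832; chromosome 17, 43527844 to 43579620, minus strand) had 65.5, 57.7 and 61.9 CPM with overexpression, against 64.5, 58.8 and 68.0 CPM with empty vector, and the groups overlapped. Its log2 fold change was -0.048 with a 95% interval of -0.22 to 0.12 (edgeR adjusted p = 0.737), and it was 0.0011 without empty vector replicate 3. Part of ETV4 overlaps DHX8, an RNA helicase gene on the opposite strand with 4530 to 5302 counts per library, and the strand setting of the counting is not given in the sources used here. DHX8 had 121 CPM with overexpression and 122 CPM with empty vector (log2 fold change -0.0047). Within each library, the ratio of ETV5 to ETV4 counts was 0.640, 0.723 and 0.682 with overexpression, against 0.826, 0.837 and 0.801 with empty vector. This ratio does not depend on how libraries were scaled, and its groups did not overlap. It was chosen after its values were seen, and how often ratios of other gene pairs lie apart was not counted. In CPM the groups of ETV5 alone already lay apart, as did those of 15.5% of all genes tested in that direction.

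EGR1, an early response factor induced through ERK and the serum response factor, was the member with a higher mean with overexpression. EGR1 (ENSG00000120738; chromosome 5, 138465490 to 138469315, plus strand) had 27.1, 27.5 and 23.2 CPM with overexpression, against 28.3, 22.7 and 22.3 CPM with empty vector. The groups overlapped, and the highest of the 6 values was that of empty vector replicate 1. The log2 fold change was 0.086 with a 95% interval of -0.17 to 0.35 (edgeR adjusted p = 0.685), so that a fall of more than 11.3% lies outside the interval while a rise of up to 27.0% lies inside it. Without empty vector replicate 1 the log2 fold change was 0.20, and without empty vector replicate 3 it was 0.025, neither of them called. Per EGR1 count in the same library, IER3 had 2.27, 2.21 and 2.69 counts with overexpression, against 2.95, 3.31 and 3.67 with empty vector. DUSP6 had 0.225, 0.156 and 0.233 counts per EGR1 count with overexpression, against 0.249, 0.387 and 0.358 with empty vector. The groups did not overlap for the ratios of IER3 and DUSP6, but they did for that of SPRY2. SPRY2 had 0.121, 0.0953 and 0.136 counts per EGR1 count with overexpression, against 0.136, 0.189 and 0.188 with empty vector. These ratios were chosen after their values were seen, and how often ratios of other gene pairs lie apart was not counted.

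Among DUSP4, DUSP5 and DUSP6, DUSP6 differed most in size but was not called by edgeR. DUSP6, which encodes a cytoplasmic phosphatase specific for ERK, is a standard transcriptional readout of the pathway (ENSG00000139318; chromosome 12, 89347232 to 89353271, minus strand). It had 6.12, 4.29 and 5.40 CPM with overexpression, against 7.03, 8.79 and 8.001 CPM with empty vector. The groups did not overlap, although overexpression replicate 1 and empty vector replicate 1 lay within 1 CPM of each other. The mean was 5.27 ± 0.919 CPM with overexpression and 7.94 ± 0.884 CPM with empty vector (SD, n = 3 each). On the log2 scale DUSP6 differed by -0.59 with a 95% interval of -0.94 to -0.24 (SE 0.153, edgeR adjusted p = 0.0638). DESeq2 called DUSP6 lower (adjusted p = 0.0231), and its adjusted p over the other alternatives reached 0.168. The log2 fold change was -0.46 without overexpression replicate 2, the library with the lowest value, and -0.71 without overexpression replicate 1.

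DUSP4 encodes a nuclear phosphatase that acts on ERK, JNK and p38 kinases (ENSG00000120875; chromosome 8, 29333064 to 29350668, minus strand). It had 16.0, 16.6 and 15.2 CPM with overexpression, against 18.8, 19.8 and 19.2 CPM with empty vector, with no overlap and an SD of 0.678 CPM with overexpression and 0.466 CPM with empty vector. Its log2 fold change of -0.27 (95% interval -0.44 to -0.11) had an edgeR adjusted p = 0.0667, and 0 of the 17 alternatives called it. DUSP5, which encodes a nuclear phosphatase specific for ERK (ENSG00000138166; chromosome 10, 110497838 to 110511544, plus strand), had 36.004, 37.9 and 38.008 CPM with overexpression. With empty vector it had 39.1, 39.3 and 42.1 CPM, so that the groups lay apart by little. The log2 fold change of DUSP5 was -0.11 with a 95% interval of -0.25 to 0.036 (edgeR adjusted p = 0.338). Per DUSP5 count in the same library, DUSP6 had 0.170, 0.113 and 0.142 counts with overexpression, against 0.180, 0.224 and 0.190 counts with empty vector.

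SPRY2 and SPRY4 encode Sprouty proteins, which are induced by growth factors and restrain receptor signalling to RAS and RAF. SPRY2 (ENSG00000136158; chromosome 13, 80335976 to 80340951, minus strand) had 3.29, 2.62 and 3.15 CPM with overexpression, against 3.83, 4.29 and 4.21 CPM with empty vector, with no overlap. The SPRY2 log2 fold change of -0.44 (95% interval -0.76 to -0.12) was not called (edgeR adjusted p = 0.105), nor in any of the 17 alternatives. SPRY4 (ENSG00000187678; chromosome 5, 142310427 to 142326455, minus strand) had 3.43, 2.26 and 4.68 CPM with overexpression, against 4.42, 4.20 and 5.16 CPM with empty vector. SPRY4 had the widest spread of the 10, and overexpression replicate 3 lay above 2 of the empty vector libraries. Its log2 fold change was -0.41 with a 95% interval of -0.99 to 0.17 (edgeR adjusted p = 0.363), and it was -0.18 without overexpression replicate 2 and -0.69 without overexpression replicate 3. DUSP6, SPRY2 and SPRY4 each had their lowest value in overexpression replicate 2. DUSP6 had 169 to 375 counts per library, SPRY2 103 to 183 and SPRY4 89 to 200. The coefficient of variation with overexpression was 17.4% for DUSP6, 11.7% for SPRY2 and 35.0% for SPRY4, and the part of depth in their missed calls was not tested.

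SPRED1 encodes an inhibitor that brings the RAS regulator neurofibromin to the membrane (ENSG00000166068; chromosome 15, 38252326 to 38357249, plus strand). It had 17.6, 17.0 and 17.4 CPM with overexpression, against 22.2, 20.1 and 18.7 CPM with empty vector. The overexpression libraries were close together, and the empty vector libraries spread above them. The SPRED1 log2 fold change of -0.23 (95% interval -0.42 to -0.038) had an edgeR adjusted p = 0.149, and it was -0.16 without empty vector replicate 1. On TPM the groups of SPRED1 overlapped by little, with 4.33, 4.25 and 4.64 with overexpression and 5.80, 5.15 and 4.64 with empty vector. Antisense genes on the opposite strand overlap DUSP6, SPRY4, ETV5 and IER3 in GENCODE release 29. None of these was analysed here, and their reads cannot be told apart from those of the 4 genes unless strand was used.

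**Figure D2:**
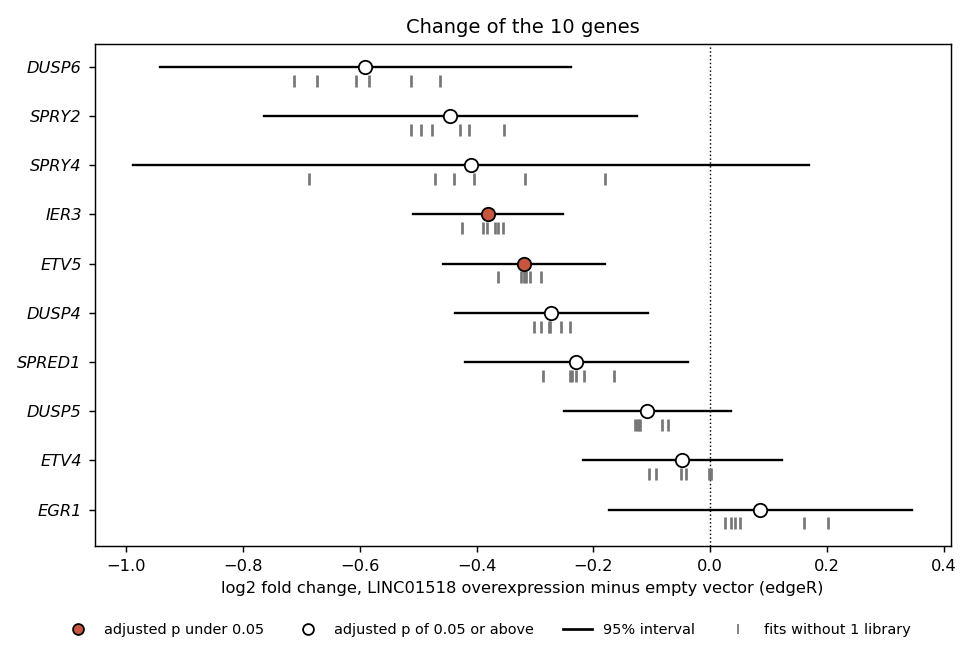
Log2 fold change of each of the 10 genes, LINC01518 overexpression minus empty vector, from edgeR (horizontal axis), with 95% intervals as lines and the fits that left out 1 library as ticks; filled points have an adjusted p under 0.05. IER3 and ETV5 are called at -0.38 and -0.32, while DUSP6, SPRY2 and SPRY4 have larger values with wider intervals.

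Promoter sequence was available from RefSeq (GRCh38.p14) for 5 of the 10 genes: EGR1, SPRY2, SPRY4, DUSP6 and SPRED1. The 250 bases before the annotated start of EGR1 and before the outermost start of SPRY2 are shown because these windows lie outside the annotated span of their gene in GENCODE release 29. The windows of SPRY4, DUSP6 and SPRED1 and those before the other 2 annotated starts of SPRY2 lie inside the span of their gene, downstream of its outermost start, and are not printed. Neither EGR1 nor SPRY2 was called. Capitals mark 3 motifs on either strand: the CArG box bound by the serum response factor, TGACG, the core of the cyclic AMP response element, and CCGGAA, a core of ETS factor sites.
EGR1 (chr5:138465229-138465478, plus strand): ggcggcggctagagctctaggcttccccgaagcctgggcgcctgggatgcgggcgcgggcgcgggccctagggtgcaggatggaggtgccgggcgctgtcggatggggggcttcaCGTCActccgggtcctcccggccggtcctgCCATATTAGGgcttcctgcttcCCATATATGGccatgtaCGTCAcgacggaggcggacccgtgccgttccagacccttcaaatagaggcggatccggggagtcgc
SPRY2 (chr13:80341127-80341376, minus strand): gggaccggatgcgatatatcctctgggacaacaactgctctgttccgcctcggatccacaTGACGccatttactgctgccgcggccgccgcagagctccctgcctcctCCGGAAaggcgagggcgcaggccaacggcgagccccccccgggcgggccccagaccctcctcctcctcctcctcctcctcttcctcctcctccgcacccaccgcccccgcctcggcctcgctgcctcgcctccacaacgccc

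The EGR1 window held 2 CArG boxes, CCATATTAGG beginning 105 bases before the start and CCATATATGG beginning 83 bases before it, and 2 matches to TGACG on the opposite strand. No match overlapped another. The SPRY2 window held 1 match to TGACG and 1 to CCGGAA, which also did not overlap, and 0 CArG boxes. Of the windows inside their gene's span, that of SPRY4 had 1 match to TGACG, and those of DUSP6, SPRED1 and the other 2 SPRY2 starts had 0 matches to any of the 3. Of 35116 promoter windows of the same length, 1.16% held a CArG box, 21.2% a match to TGACG and 14.5% a match to CCGGAA. A match describes the letters of the window only. DUSP4, DUSP5, ETV4, ETV5 and IER3 had no entry.

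Levels of the 10 genes were compared on the TPM scale, which divides by transcript length. Over the 6 libraries the order of mean TPM was IER3 (107), ETV4 (64.3), DUSP5 (29.7), ETV5 (24.6), EGR1 (15.7), DUSP4 (6.26), SPRED1 (4.80), DUSP6 (3.54), SPRY2 (3.24) and SPRY4 (2.08). The ranges of IER3, ETV4 and DUSP5 did not overlap, nor did that of ETV5 with EGR1 or that of EGR1 with DUSP4. DUSP5 and ETV5 overlapped, and so did each pair of neighbours from DUSP4 down to SPRY4, so that the order at the lower end is not firm. IER3 exceeded 92.6% of all genes of the table in mean TPM and SPRY4 exceeded 42.7%.

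**Figure D3:**
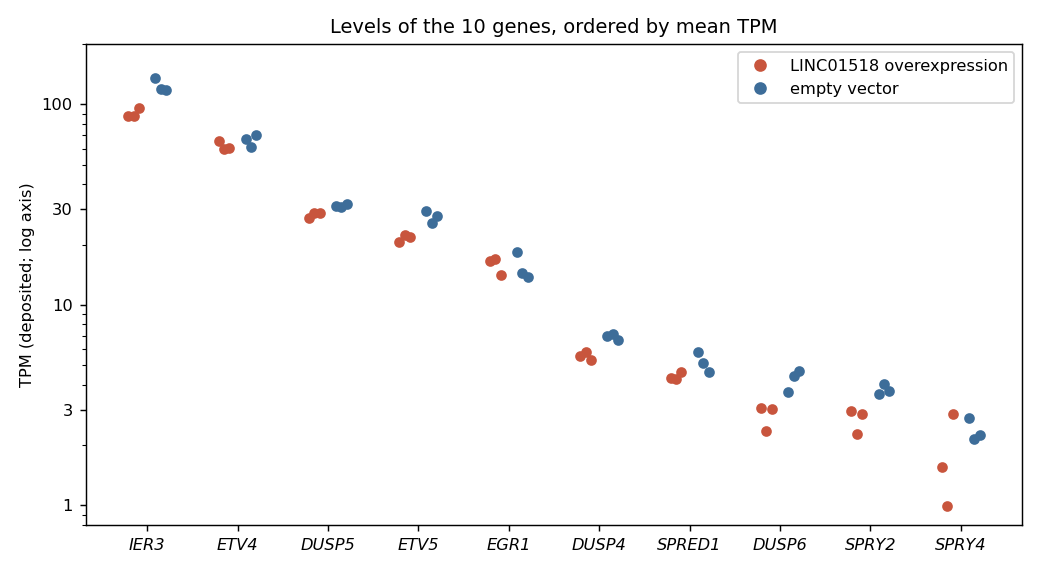
Deposited TPM of the 10 genes in each library (vertical log axis), ordered by their mean, with LINC01518 overexpression left of empty vector for each gene. The mean over 6 libraries runs from 107 TPM for IER3 to 2.08 TPM for SPRY4.

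The genes whose levels over the 6 libraries lay closest to the 2 called members were sought among 10166 genes averaging 3 or more in log2 CPM. The measure was the root mean square difference of log2 CPM after each gene was centred on its own mean. For IER3 the closest were SOWAHC (0.018), ATP6V0A2 (0.030) and ZNF600 (0.030), against a median of 0.219 over the genes searched. For ETV5 they were ATP6V0A2 (0.024), TSPAN13 (0.025) and STXBP5 (0.031), against a median of 0.193. IER3 and ETV5 differed from each other by 0.035. Of the other members, DUSP4 was the closest to both, at 0.097 from IER3 and 0.078 from ETV5, and SPRY4 the farthest, at 0.299 and 0.309.

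The remaining genes of the pathway were described in lists by role, 147 genes in all, of which 131 were tested. With overexpression 11 of the 131 rose, 8.40% against 3.57% of all genes tested, and 6 fell, 4.58% against 2.03%. Their median log2 fold change was -0.019 and 71 of the 131 were negative. The shares of all genes tested, 3.57% higher and 2.03% lower, are the background for each list below. At an unadjusted p under 0.05 in edgeR that background was 12.3% higher and 11.4% lower. DUSP9, JUND and PEBP1 kept their calls in each of the 6 fits that left out 1 library, and the other 14 lost theirs in at least 2 of these fits.

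Among ligands, 1 of the 8 tested rose and 1 fell (2 and 3 at an unadjusted p under 0.05), with a median log2 fold change of -0.20. AREG, the gene of the EGF receptor ligand amphiregulin, had 2.57, 2.36 and 2.30 CPM with overexpression, against 3.71, 3.56 and 3.67 CPM with empty vector. For AREG the log2 fold change was -0.59 (SE 0.127, edgeR adjusted p = 0.039), and it was not called in any fit that left out 1 library. IGF1, an insulin-like growth factor gene, had 91 to 106 counts per library with overexpression and 27 to 45 with empty vector (log2 fold change 1.42, edgeR adjusted p = 0.0184). IGF1 lost its call without any 1 of the 3 overexpression libraries (edgeR adjusted p up to 0.0644). In TPM the mean of IGF1 was 1.16 with overexpression and 0.459 with empty vector. On log2(TPM + 1) its log2 fold change was 0.57 and was not called (limma-trend adjusted p = 0.0914). EGF, BTC and FGF9 had 0 counts in all 6 libraries.

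Of 12 receptor genes tested, FGFR2 and PDGFRB rose and 0 fell (1 at an unadjusted p under 0.05, 0 by DESeq2), with a median of 0.056. FGFR2 had only 1.95 ± 0.211 CPM with overexpression and 1.09 ± 0.0551 CPM with empty vector (SD, n = 3 each), and neither gene was called in any fit that left out 1 library (edgeR adjusted p of 0.0796 to 0.141). On TPM the groups of both genes overlapped, and the log2 fold change of PDGFRB was -0.059 there, against 0.31 on counts. EGFR, the gene of the EGF receptor, had 287 CPM with overexpression and 324 CPM with empty vector (log2 fold change -0.18, edgeR adjusted p = 0.168).

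Of 24 tested genes between the receptors and ERK, 2 rose, ARAF among them, and 0 fell (3 at an unadjusted p under 0.05, 1 by DESeq2), with a median of -0.030. ARAF, which encodes a kinase that activates MEK, had 94.4, 97.5 and 97.2 CPM with overexpression, against 76.5, 77.5 and 81.7 CPM with empty vector. The groups did not overlap, and the difference was 0.29 on the log2 scale (edgeR adjusted p = 0.0173). ARAF kept its call in 2 of the 6 fits that left out 1 library, with an edgeR adjusted p between 0.0272 and 0.0762. PEBP1, which encodes an inhibitor of the cascade, had 254, 245 and 251 CPM with overexpression, against 172, 174 and 184 CPM with empty vector. PEBP1 was the only one called of 11 other inhibitor genes tested, at 0.50 on the log2 scale (SE 0.044, edgeR adjusted p = 0.00258), with 0 lower (1 at an unadjusted p under 0.05, 0 by DESeq2).

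**Figure D4:**
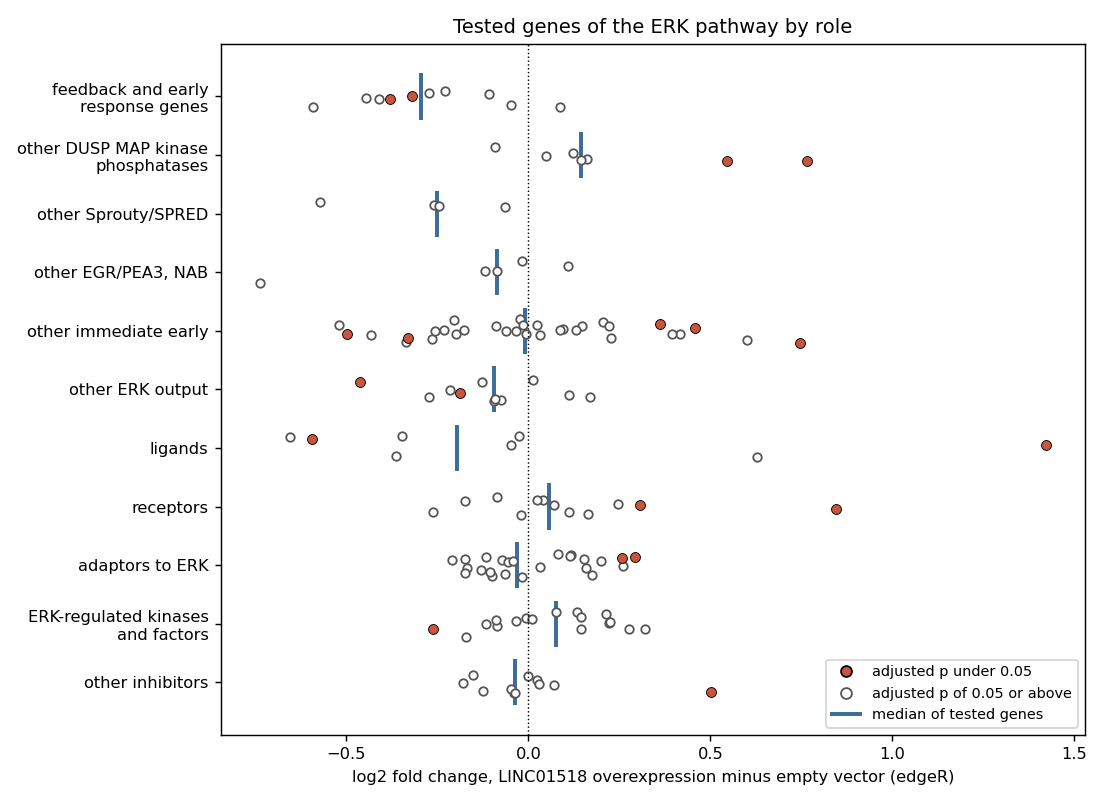
Log2 fold change, LINC01518 overexpression minus empty vector (horizontal axis), of each tested gene of the ERK pathway, grouped by role; filled points have an edgeR adjusted p under 0.05 and blue lines are medians. The feedback and early response genes have a median of -0.30 and the other DUSP phosphatases one of 0.15.

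Of the 7 other MAP kinase phosphatase genes of the DUSP family, all tested, DUSP9 and DUSP2 rose and 0 fell (0 at an unadjusted p under 0.05, 0 by DESeq2), with a median log2 fold change of 0.15 and 1 negative value, that of DUSP1. DUSP9, which encodes a cytoplasmic relative of DUSP6, had 44.9, 36.9 and 41.2 CPM with overexpression, against 24.7, 22.4 and 25.2 CPM with empty vector. For DUSP9 the log2 fold change was 0.77 (SE 0.089, edgeR adjusted p = 0.0064). Per DUSP6 count in the same library, DUSP9 had 7.34, 8.60 and 7.62 counts with overexpression, against 3.52, 2.55 and 3.15 counts with empty vector. In CPM the groups of both genes already lay apart, DUSP9 higher and DUSP6 lower, so this ratio had to lie apart as well. DUSP2, which encodes a nuclear phosphatase of stimulated cells, had 33.7 ± 3.96 CPM with overexpression and 23.1 ± 1.53 CPM with empty vector (SD, n = 3 each; edgeR adjusted p = 0.0237). The DUSP2 call held in 2 of the 6 fits that left out 1 library, with adjusted p up to 0.0785. DUSP1, itself an early response gene, had a log2 fold change of -0.091 (edgeR adjusted p = 0.298).

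The 4 other Sprouty and SPRED genes were all negative, with a median of -0.25, and 0 were called, with 0 at an unadjusted p under 0.05 and 0 called by DESeq2. SPRY1 had 3.39 CPM with overexpression and 5.04 CPM with empty vector (log2 fold change -0.57, 95% interval -1.25 to 0.10). Its libraries held 2.48, 5.03 and 2.65 CPM with overexpression, against 5.44, 4.24 and 5.42 CPM with empty vector, and without overexpression replicate 2 edgeR called it (adjusted p = 0.045). SPRED2 had a log2 fold change of -0.063. Among the other EGR and PEA3 genes and the EGR corepressors, 0 of 5 tested were called, with 0 at an unadjusted p under 0.05 and 0 by DESeq2. ETV1, a PEA3 gene known to be rearranged in LNCaP, the line that the labels name, had 21.9 CPM with overexpression and 22.2 CPM with empty vector.

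The other immediate early genes went both ways, with 3 of 32 higher, 2 lower and a median of -0.010. At an unadjusted p under 0.05, 5 were higher and 6 lower, and DESeq2 called 3 higher and 4 lower. JUND, a component of the AP-1 factor, had 190.2, 198.5 and 201 CPM with overexpression, against 144, 138 and 147 CPM with empty vector (log2 fold change 0.46, edgeR adjusted p = 0.00375). The nuclear receptor genes NR4A3 (log2 fold change 0.75, edgeR adjusted p = 0.0204) and NR4A1 (0.36, 0.0222) rose, and the kinase gene PLK3 (-0.50, 0.0134) and the survival gene MCL1 (-0.33, 0.0146) fell. NR4A3 held its call in 3 of the 6 fits that left out 1 library, with edgeR adjusted p up to 0.0773. NR4A1 held it in 2 (up to 0.0806), PLK3 in 4 (up to 0.0532) and MCL1 in 4 (up to 0.0633). On log2(TPM + 1), limma-trend did not call NR4A3 (adjusted p = 0.0857) or NR4A1 (0.12). It did call PLK3 (0.036) and MCL1 (0.043). FOS, which like EGR1 is induced through the serum response factor, had 36.7, 18.3 and 30.6 CPM with overexpression, against 12.8, 33.4 and 27.0 CPM with empty vector. The spread of FOS within each group exceeded the difference between the group means. Of the other FOS and JUN family genes, FOSL1 (log2 fold change -0.52), FOSL2 (-0.34), FOSB (-0.23) and JUNB (-0.20) were lower and JUN (0.22) was higher. None of these was called by edgeR, while DESeq2 called FOSL1 (adjusted p = 0.0138) and JUNB (0.0205) lower.

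Other genes used as readouts of ERK output had 2 of 11 lower and 0 higher, with a median of -0.094. At an unadjusted p under 0.05, 4 were lower and 0 higher, and DESeq2 called 2 lower and 0 higher. PHLDA1, a growth factor-induced gene used in scores of ERK activity, had 44.3, 40.6 and 42.5 CPM with overexpression, against 57.6, 54.4 and 63.5 CPM with empty vector (log2 fold change -0.46, SE 0.073, edgeR adjusted p = 0.0154). PHLDA1 lost its call without overexpression replicate 2 or 3, with an adjusted p up to 0.0613. EPHA2, an ephrin receptor gene, had a log2 fold change of -0.19 (edgeR adjusted p = 0.0448) and was not called in any fit that left out 1 library. CCND1, the cyclin D1 gene, had 120.5 CPM with overexpression and 129 CPM with empty vector and was not called. Of 17 tested genes of kinases and factors on which ERK acts, ETS2 fell and 0 rose (5 at an unadjusted p under 0.05, 3 by DESeq2), with a median of 0.075. ETS2, an ETS factor gene, had a log2 fold change of -0.26 (edgeR adjusted p = 0.0396) and was not called in any fit that left out 1 library, with adjusted p of 0.0666 to 0.128.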

How the data were processed

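Per the submitters' processing notes, reads were handled with Trimmomatic 0.36, HISAT2, featureCounts of Subread 1.5.1 and DESeq, on build GRCh38. The deposited gene counts are whole numbers with no normalization, and the deposited TPM, whose tool is not given in the sources used here, served for levels and for alternative fits. The 12 columns were matched to samples by name, with 0 left over.

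The counts were filtered (filterByExpr, minimum count 10 and total 15), scaled by TMM and fitted by a robust quasi-likelihood model of group alone in edgeR 4.0.16 (R 4.3.3), with Benjamini-Hochberg adjustment over all 13543 genes. SE is the size of the log2 fold change divided by the square root of F, and intervals cover 95%. The code was tested on simulated data. Alternatives used limma 3.58.1, DESeq2 1.42.0, other scalings and filters, log2(TPM + 1), log2(TPM + 0.1), a replicate block and the omission of each library.

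The members and lists were chosen with earlier results of these data known. Named genes are the members, up to 4 called genes of each list by p and the 3 genes closest to each called member. NR4A1, EGFR, DUSP1, SPRY1, SPRED2, ETV1, FOS, FOSB, FOSL1, FOSL2, JUN, JUNB and CCND1 were named after their values were seen. The ratios of counts within a library were also chosen after their values were seen. Some genes that the rule names are not reported here.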

Additional observations from a re-analysis of the deposited data

How the results depend on the processing

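Of 170 values of the 10 genes under 17 alternatives, 156 kept their direction and side of the threshold, 12 lost a call (ETV5 and IER3), 1 gained one (DUSP6 with DESeq2) and 1 reversed: ETV4, whose log2 fold change lay between -0.1046 and 0.0011 without 1 library, the highest without empty vector replicate 3. Over all genes 759 were called, 484 higher and 275 lower, against 346 higher and 382 lower with library size as the only scaling, and 1316 in all with DESeq2. On log2(TPM + 1), log2(TPM + 0.1) and log2(TPM + 1) without a count filter, 219, 225 and 152 genes were called, 100 higher and 119 lower in the first. In the same 3 fits, 1, 1 and 0 of the 10 genes were called lower and 3 pathway genes higher in each. The last of them called 3 pathway genes lower, and DESeq2 called 10, against 6. Without 1 library, 193 to 458 genes, 0 to 2 of the 10 genes, 3 to 8 pathway genes higher and 1 to 3 lower were called. These fits have fewer samples, and the part of that in the lost calls was not tested. The members called higher were 0 throughout. The cause of the other differences was not tested.

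The deviations of same-numbered libraries from their group means correlated at 0.037, 0.055 and 0.045, and each library correlated best with its own number. Libraries with different numbers correlated at -0.065 to 0.019. Whether same-numbered libraries were prepared together is not stated in the labels and was not tested. With the number as a replicate block, 232 genes, 1 of the 10 (IER3), 7 pathway genes higher and 2 lower were called. DUSP6, SPRY2 and SPRY4 had 89 to 375 counts per library, and the part of depth in their missed calls was not tested. AREG and IGF1 were called on fewer mean counts than any of the 3, but they differed from these in other ways. IGF1 had a log2 fold change of 1.42, and AREG had a coefficient of variation of 5.85% with overexpression. The comparison therefore does not bear on the part of depth.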
